A study of Mus musculus with 12 samples.

Results

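The genes described here are 9 genes for proteins of the secondary and tertiary granules of neutrophils, Ltf, Ngp, Camp, Lcn2, Mmp8, Mmp9, Cd177, Chil3 and Retnlg, out of 55401 genes in the expression table. They were chosen from these same 12 libraries because their level differed between hosts, so the host differences of the 9 genes are given as a description, without p-values. All 9 averaged 1 TPM or more (transcripts in each 1000000, a level per unit of transcript length) and were among the 15026 genes that passed this limit. The limit is on the mean over all libraries, so a gene that is high in 1 host can pass through that host alone.

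Neutrophils fill their granules in waves while they mature in the bone marrow. Proteases such as elastase go into primary granules in promyelocytes, lactoferrin and its companions into secondary (specific) granules in myelocytes and metamyelocytes, and gelatinase into tertiary granules in band cells. Transcription of the later waves needs the factor C/EBP epsilon, and leukemic myeloid cells that stop at an early stage usually carry the primary granule transcripts and little of the later ones. The contents withhold iron from microbes, pierce their membranes or, in the case of the metalloproteinases, cut extracellular matrix.

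The cells came from MLL-AF9 leukemia, a mouse acute myeloid leukemia made by expressing the MLL-AF9 fusion together with GFP in bone marrow progenitors. It had been maintained by more than 10 serial passages in non-irradiated mice, so all 12 libraries hold 1 leukemia line that had grown in different hosts. The hosts were female, 8 to 12 weeks old, and were C57BL/6 mice (WT), Rag2-/- mice, which lack mature T and B cells, or NSG mice, which lack T, B and NK cells and also differ from the others in strain background. RNA was taken from GFP+ cells of the bone marrow of moribund mice, with 4 libraries for each host, which the labels call biological replicates. The genotypes are those of the hosts, and the leukemia cells themselves carry none of the deletions. Depth, estimated from the spacing of the deposited TPM values, in units of 1000000 reads, was 16.0 to 27.1 for WT, 17.4 to 42.8 for Rag2-/- and 19.0 to 33.1 for NSG libraries.

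The upstream sequences of 4 of the genes are printed to show the members side by side, Retnlg and Mmp8 from those with little RNA in WT cells and Cd177 and Chil3 from those with abundant RNA there. These are the genes whose RefSeq window (GRCm38.p6) of 250 bases before the start lies wholly outside the gene body of the GENCODE annotation. Retnlg lies at chr16:48872358-48872607 on the plus strand, Mmp8 at chr9:7558179-7558428 on the plus strand, Cd177 at chr7:24760312-24760561 on the minus strand and Chil3 at chr3:106167565-106167814 on the minus strand. Each is written 5′ to 3′ towards the start of its gene, with capitals at matches to TTNNGNAA, a loose form of the C/EBP recognition sequence, on either strand.
Retnlg: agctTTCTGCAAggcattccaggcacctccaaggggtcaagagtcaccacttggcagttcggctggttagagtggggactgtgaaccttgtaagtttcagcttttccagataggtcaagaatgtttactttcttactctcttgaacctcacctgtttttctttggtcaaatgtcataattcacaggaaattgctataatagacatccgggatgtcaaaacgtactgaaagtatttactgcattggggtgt
Mmp8: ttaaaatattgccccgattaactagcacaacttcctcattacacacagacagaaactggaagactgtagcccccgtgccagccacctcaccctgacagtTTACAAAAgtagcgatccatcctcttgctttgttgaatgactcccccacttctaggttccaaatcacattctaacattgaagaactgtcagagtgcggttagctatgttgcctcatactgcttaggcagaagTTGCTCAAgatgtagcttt
Cd177: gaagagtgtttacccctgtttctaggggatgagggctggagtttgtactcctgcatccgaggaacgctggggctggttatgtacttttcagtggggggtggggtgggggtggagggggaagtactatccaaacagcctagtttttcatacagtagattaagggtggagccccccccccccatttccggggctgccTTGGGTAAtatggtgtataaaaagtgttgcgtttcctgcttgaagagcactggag
Chil3: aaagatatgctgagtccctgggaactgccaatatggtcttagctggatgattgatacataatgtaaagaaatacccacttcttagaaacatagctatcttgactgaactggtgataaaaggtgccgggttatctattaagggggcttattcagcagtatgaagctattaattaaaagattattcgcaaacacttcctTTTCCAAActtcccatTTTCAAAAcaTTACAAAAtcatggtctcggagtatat
Windows were found for 8 of the 9 genes, the exception being Mmp9. The letters TTNNGNAA were found in 7 of these 8 windows, all but that of Camp, and in 36.8% of 32851 mouse windows of the same length. The longer form TTNNGNAAT was found in 4 of the 8 (Ltf, Ngp, Cd177 and Chil3) and in 10.2% of all windows, and overlaps the shorter form by construction. The PU.1 sequence AGGAAGT was found in 2 of the 8 (Mmp8 and Chil3) against 7.69% of all windows, and TATAAA in 1 (Cd177) against 12.4%. The patterns were chosen with these genes in view, and a match describes letters and not a binding site.

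The 9 genes were most abundant in cells from Rag2-/- mice, and their sum was lower, with overlapping ranges, in cells from WT and NSG mice. Summed over the 9 genes, the level was 1457, 2217, 2217 and 3254 TPM in WT, 1804, 2113, 2394 and 3146 TPM in NSG and 2208, 7605, 8813 and 10125 TPM in Rag2-/- libraries. The sum overlapped between hosts through a single Rag2-/- library, replicate 4, at 2208 TPM. In bulk RNA, a larger share of cells that carry these transcripts and more RNA per cell cannot be told apart.

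**Figure D1:**
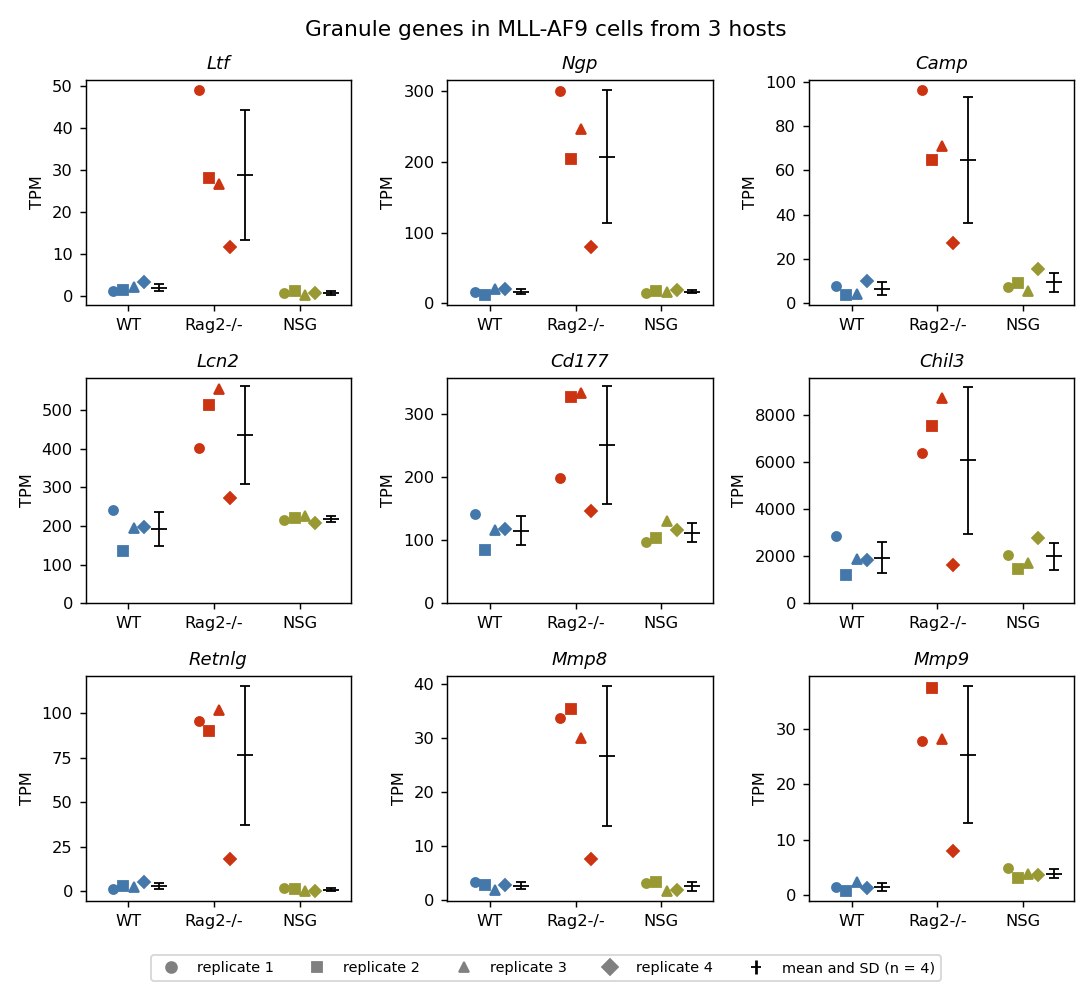
Level of each of the 9 granule genes in every library, in TPM on linear axes that differ between panels. Each symbol is 1 library, with the shape giving the replicate number, and the black bar is the mean with its SD (n = 4). In 8 of the 9 panels all Rag2-/- libraries lie above all WT and NSG libraries, and Rag2-/- replicate 4 is the lowest Rag2-/- library in every panel.

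Ltf, Ngp, Camp and Lcn2 encode soluble contents of secondary granules. Lactoferrin (Ltf, chr9:111019271-111042767, GRCm38, plus strand), which withholds iron from bacteria, was at 1.12, 1.38, 2.04 and 3.19 TPM in WT replicates 1 to 4. It was at 49.1, 28.1, 26.5 and 11.5 TPM in Rag2-/- and at 0.521, 1.17, 0.102 and 0.597 TPM in NSG replicates 1 to 4. No Rag2-/- library overlapped the other hosts. The mean was 28.8 ± 15.5 TPM (SD, n = 4) for Rag2-/- hosts, and for WT and NSG it was 1.93 ± 0.921 and 0.597 ± 0.437. The log2(TPM + 1) difference was 3.23 ± 0.37 (SE) from WT and 4.10 ± 0.37 from NSG. This scale understates the change of genes near 0, and with a pseudocount of 0.1 the Ltf difference from NSG was 5.47. Only 2 to 24 estimated reads lay behind Ltf in an NSG library, against 448 to 1688 in a Rag2-/- library.

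Ngp (chr9:110419747-110423012, plus strand), a neutrophil granule protein of the cystatin superfamily, was at 15.5, 11.2, 19.7 and 19.4 TPM in WT, at 301, 205, 246 and 79.0 TPM in Rag2-/- and at 14.0, 17.6, 15.5 and 18.8 TPM in NSG replicates 1 to 4. WT and NSG libraries were mixed together between 11.2 and 19.7 TPM, and the lowest Rag2-/- library stood 4.02-fold above the highest of them. The mean in Rag2-/- cells was 12.6-fold that in WT and 12.6-fold that in NSG cells.

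Camp (chr9:109847379-109849617, minus strand) encodes the mouse cathelicidin, a precursor cut into an antimicrobial peptide. Its level was 7.96, 3.92, 4.39 and 10.0 TPM in WT, 96.3, 64.8, 70.9 and 27.4 TPM in Rag2-/- and 7.36, 9.28, 5.59 and 15.3 TPM in NSG replicates 1 to 4. The Rag2-/- libraries were all higher, with mean ratios of 9.86 to WT and 6.91 to NSG. The Rag2-/- libraries held Camp and Ngp in a narrow ratio, 0.288 to 0.347 TPM of Camp per TPM of Ngp. The ratio ran from 0.223 to 0.518 among WT and from 0.362 to 0.817 among NSG libraries. Camp rested on 15 to 36 estimated reads in WT and 24 to 113 in NSG libraries. The highest ratio was in NSG replicate 4, which held 113 estimated reads of Camp and 223 of Ngp. The cause of this spread was not tested.

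Lcn2 (chr2:32384633-32388252, minus strand), a lipocalin that binds bacterial siderophores, was already abundant outside Rag2-/- hosts. It was at 241, 136, 194 and 198 TPM in WT, at 402, 513, 555 and 273 TPM in Rag2-/- and at 215, 221, 227 and 208 TPM in NSG replicates 1 to 4. The Rag2-/- libraries did not overlap those of the other hosts, but the gap was small, the lowest Rag2-/- library being 1.13-fold the highest of the other 8. The means were 192 ± 42.9 TPM for WT, 436 ± 126 for Rag2-/- and 218 ± 8.07 for NSG cells, so the ratio to WT was 2.26 where those of Ltf, Ngp and Camp were 14.9, 12.6 and 9.86.

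Cd177 (chr7:24743983-24760311, minus strand) encodes a surface and secondary granule membrane glycoprotein of neutrophils. It was at 143, 84.9, 117 and 118 TPM in WT, at 199, 328, 334 and 147 TPM in Rag2-/- and at 97.7, 104, 132 and 116 TPM in NSG replicates 1 to 4. Rag2-/- replicate 4 lay only 1.03-fold above the highest WT library, which is the closest approach among the 8 genes without overlap. The log2(TPM + 1) difference was 1.06 ± 0.24 (SE) from WT and 1.08 ± 0.24 from NSG.

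Chil3 (chr3:106147554-106167564, minus strand), the chitinase-like lectin Ym1, which neutrophil precursors and some macrophages make, carried most of the RNA of the group, 74.1% to 88.4% of the summed TPM in every library. It was at 2840, 1214, 1873 and 1859 TPM in WT, at 6401, 7512, 8732 and 1636 TPM in Rag2-/- and at 2049, 1443, 1729 and 2782 TPM in NSG replicates 1 to 4. It was the 1 gene of the 9 in which Rag2-/- libraries overlapped those of the other hosts, since Rag2-/- replicate 4 lay within the WT and NSG range while replicates 1 to 3 lay above it. In those 3 libraries Chil3 ranked 4, 4 and 3 among all genes by TPM, and in replicate 4 it ranked 58. Chil4, a close sequence relative with which it may share reads, was at 1.16 TPM or less in every library.

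Retnlg (chr16:48872621-48874496, plus strand), resistin-like gamma, a small secreted protein of neutrophils, showed the largest difference of the 9. It was at 1.45, 2.67, 2.59 and 4.99 TPM in WT, at 95.6, 90.0, 102 and 18.2 TPM in Rag2-/- and at 1.82, 1.13, 0 and 0.347 TPM in NSG replicates 1 to 4. The log2(TPM + 1) difference was 4.11 ± 0.51 (SE) from WT and 5.26 ± 0.51 from NSG. The NSG libraries held only 6, 4, 0 and 2 estimated reads of Retnlg, and with a pseudocount of 0.1 the difference from NSG was 6.80.

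Mmp8 and Mmp9 encode the proteases neutrophil collagenase and gelatinase B, the latter being the defining content of tertiary granules. Mmp8 (chr9:7558456-7568485, plus strand) was at 3.20, 2.70, 1.74 and 2.70 TPM in WT, at 33.8, 35.5, 30.0 and 7.51 TPM in Rag2-/- and at 3.12, 3.32, 1.68 and 1.74 TPM in NSG replicates 1 to 4. Mmp9 (chr2:164940780-164955850, plus strand) was at 1.46, 0.672, 2.39 and 1.19 TPM in WT, at 27.9, 37.5, 28.1 and 8.01 TPM in Rag2-/- and at 4.93, 3.12, 3.79 and 3.55 TPM in NSG replicates 1 to 4. In both genes replicate 4 was far below the other Rag2-/- libraries and still above every WT and NSG library. Mmp9 was also the 1 member with a gap between NSG and WT, the lowest NSG library at 3.12 TPM lying above the highest WT library at 2.39 TPM, as in 2.21% of all genes tested. Mmp8 had no such gap, its means being 2.58 ± 0.610 TPM in WT and 2.46 ± 0.875 TPM in NSG.

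**Figure D2:**
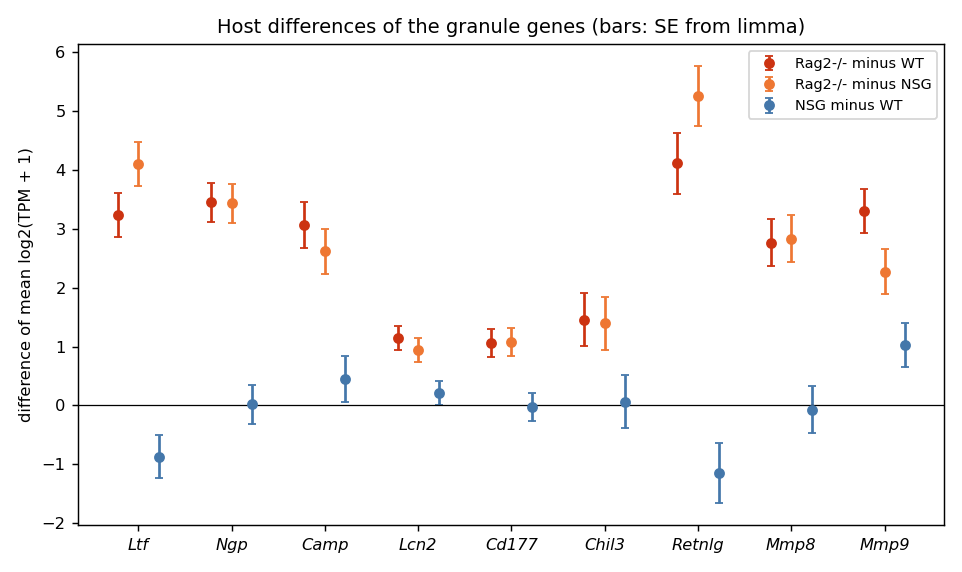
Difference of mean log2(TPM + 1) between hosts for each of the 9 granule genes, with bars for the SE of the limma fit over 12 libraries. The differences of Rag2-/- from WT run from 1.06 (Cd177) to 4.11 (Retnlg), and those of NSG from WT from -1.15 (Retnlg) to 1.03 (Mmp9).

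Across the 9 genes, the lowest Rag2-/- library exceeded the highest WT library in 8 (10.2% of all genes tested), the highest NSG library in 8 (4.34% of all genes) and all of these 8 libraries at once in 8 (2.5% of all genes). Since the 9 genes were chosen on these differences, how many of them pass a limit describes the choice and is no test of them. In the limma fit over all 15026 genes, 8 of the 9 lay past an adjusted p of 0.05 and a log2 difference of 0.5 from WT, beside 1.14% of all genes called higher and 0.326% called lower. From NSG 6 of the 9 did (not Lcn2, Cd177 and Chil3), beside 0.193% of all genes called higher and 0.02% called lower. The 2 comparisons share the Rag2-/- libraries. Median differences of the 9 genes on the log2(TPM + 1) scale were 3.07 from WT and 2.62 from NSG, where the medians of all genes tested were 0.024 and 0.013.

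Between NSG and WT cells, none of the 9 genes and 0% of the 15026 genes were called by limma, although 1377 genes had an unadjusted p below 0.05 and voom on estimated reads called 1 gene. The 9 genes had a median log2(TPM + 1) difference of 0.023 there, with 5 positive and 4 negative values. Ngp, Chil3, Cd177 and Mmp8 differed by 0.02, 0.06, -0.03 and -0.07, each less than its SE of 0.33, 0.45, 0.24 and 0.40. Camp and Lcn2 differed by 0.45 ± 0.39 and 0.20 ± 0.20. The differences of Ltf, Retnlg and Mmp9 were larger beside their SE, at -0.87 ± 0.37, -1.15 ± 0.51 and 1.03 ± 0.38. With a pseudocount of 0.1 those of Ltf and Retnlg were -1.71 and -2.28, and with voom -1.89 and -2.17.

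The 9 genes fell into 2 ranges of level in WT cells. Lcn2, Cd177 and Chil3 had WT means of 192, 116 and 1946 TPM and ratios of Rag2-/- to WT of 2.26, 2.18 and 3.12. The other 6 had WT means of 1.43 to 16.4 TPM and ratios of 9.86 to 26.1. In TPM gained the order was different, since Chil3 gained 4124 TPM over WT, Lcn2 243, Ngp 191 and Cd177 136 TPM, while Mmp9, Mmp8 and Ltf gained 23.9, 24.1 and 26.9 TPM.

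Among the 4 Rag2-/- libraries, replicate 4 was the lowest for all 9 genes, whereas this was so for 20.6% of all genes tested. It was the deepest library of the series, at an estimated 42.8 in units of 1000000 reads. Its level was 19.0% (Retnlg) to 55.6% (Lcn2) of the mean of replicates 1 to 3. Measured as the gain over the WT mean, Ltf, Ngp, Camp and Lcn2 in replicate 4 reached 29.3%, 26.7%, 29.5% and 27.0% of the gain in the other 3 libraries. Mmp8, Mmp9, Cd177 and Retnlg reached 16.1%, 22.1%, 18.4% and 16.5%, and Chil3 lay below the WT mean. Replicates 1 to 3 also differed among themselves by gene. Replicate 1 was the highest for Ltf, Ngp and Camp, replicate 2 for Mmp8 and Mmp9, and replicate 3 for Lcn2, Cd177, Chil3 and Retnlg.

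**Figure D3:**
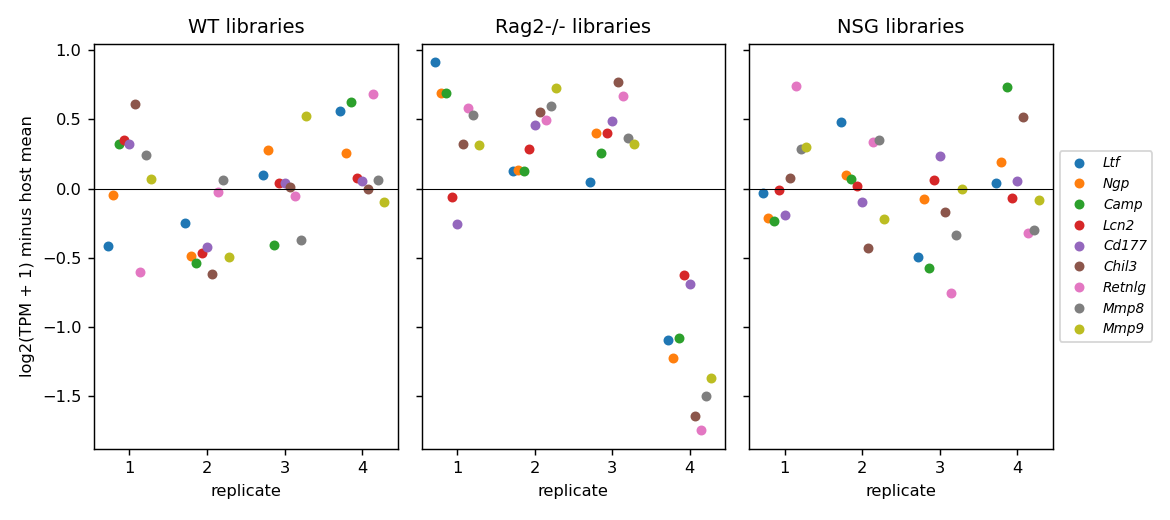
Each gene's log2(TPM + 1) in a library minus the mean of its host, for 4 libraries of each host. The 9 genes lie below the host mean together in Rag2-/- replicate 4, from Lcn2 at the top to Retnlg at the bottom, 8 of the 9 lie below it in WT replicate 2 by smaller amounts, and the genes lie on either side of 0 in the other WT and NSG libraries.

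The 9 genes moved together from library to library within hosts mainly through that library. After host means were removed, the Pearson correlation between pairs of the 9 genes over 12 libraries had a median of 0.723 over 36 pairs, from 0.219 to 0.939. Without Rag2-/- replicate 4 the median was 0.149. Within the 8 WT and NSG libraries it was 0.293, with 24 of 36 pairs above 0. Lcn2 and Cd177 kept the highest value there, 0.874, and both are among the better counted genes of the group, whereas pairs with Retnlg rest on 14 reads or fewer in each of these libraries.

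The genes most like the mean pattern of the 9 over 12 libraries, by Pearson correlation among the genes that passed the limit of 1 TPM, were S100a8 (0.983), S100a9 (0.980), Fn1 (0.973), Fpr1 (0.971), Itgb2l (0.967), Ckap4 (0.967), L1cam (0.963), Olfm1 (0.957), Cybb (0.956) and Tpd52 (0.956). These libraries share the host difference that chose the 9 genes. Fn1, with means of 0.310 TPM in WT, 0.432 in NSG and 4.61 in Rag2-/- cells, passed the limit of 1 TPM through the Rag2-/- libraries. So did Itgb2l, with means of 0.272, 0.208 and 2.67 TPM, and Fpr1. With host means removed the closest were Mfsd4b3 (0.954), S100a8 (0.952), Gm15922 (0.943), Sipa1l2 (0.928), Tmem120b (0.924), H2-T-ps (0.915), Sh3bgrl3 (0.900), Shtn1 (0.888), Hoxa5 (0.886) and S100a9 (0.883). S100a8 and S100a9, the subunits of calprotectin, a calcium-binding protein of the neutrophil cytosol, appear in both series. The pattern of the 9 genes within hosts rests mainly on Rag2-/- replicate 4, which was also the lowest Rag2-/- library for both of these genes. S100a8 was at 107 TPM there and at 360 to 429 TPM in Rag2-/- replicates 1 to 3. S100a9 was at 21.9, 21.6, 25.0 and 31.2 TPM in WT, at 701, 554, 494 and 148 TPM in Rag2-/- and at 34.1, 22.8, 17.3 and 37.9 TPM in NSG replicates 1 to 4. Its log2(TPM + 1) difference was 4.00 ± 0.40 (SE) from WT and 3.89 ± 0.40 from NSG. S100a9 was picked here for a pattern that holds the same host difference, so these values are a description.

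Other genes of the secondary and tertiary granules were mostly higher in Rag2-/- cells, and most were not called. Of 29 such genes that are not among the 9, 26 were tested by limma, of which 8 were called higher in Rag2-/- than in WT cells, 0 lower and 18 neither. The formyl peptide receptors Fpr1 and Fpr2, which sense bacterial peptides, were higher by 2.36 ± 0.27 (adjusted p = 0.0031) and 2.20 ± 0.36 (adjusted p = 0.013). Fpr1, with means of 0.511 TPM in WT, 1.10 in NSG and 7.11 in Rag2-/- cells, passed the limit of 1 TPM through the Rag2-/- libraries. Olfm4, a secondary granule glycoprotein found in a subset of neutrophils, was higher by 2.21 ± 0.37 (adjusted p = 0.014). Cybb, the catalytic subunit of the NADPH oxidase, Slc11a1, a metal transporter, Anxa1, an annexin, Ckap4 and Wfdc21 were higher by 0.61 to 0.91. The call of Slc11a1 (adjusted p = 0.044 by limma) was lost in 13 of 22 fits with different processing. Those of Cybb, Ckap4, Wfdc21 and Anxa1 were lost in 3, 3, 2 and 0. Hp, Pglyrp1, Cyba, Slpi and Lyz2 were not called, with differences of 0.25, 0.17, 0.02, -0.29 and 0.42. The median difference of the 26 genes was 0.39, with 22 positive and 4 negative values, and 17 had an unadjusted p below 0.05 by limma. Of all 15026 genes tested, 3146 had an unadjusted p below 0.05 against WT. In 15 of them all Rag2-/- libraries lay above all WT libraries (10.2% of all genes tested), and in 1 all lay below.

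Against NSG, 3 of the 26 were called higher and 0 lower, Fpr1 (1.87 ± 0.27, adjusted p = 0.025), Cybb (0.83 ± 0.15, adjusted p = 0.046) and Fpr2 (1.99 ± 0.36, adjusted p = 0.047), and the median difference was 0.36. Of the 26 differences from NSG 25 were positive and 1 negative, and 18 had an unadjusted p below 0.05 by limma. Of all 15026 genes tested, 1888 had an unadjusted p below 0.05 against NSG. In 12 genes all Rag2-/- libraries lay above all NSG libraries (4.34% of all genes tested). Rag2-/- replicate 4 was the lowest Rag2-/- library for 16 of the 26 genes. Without it the counts were 11 against WT and 8 against NSG. The count against WT was 2, 3 and 2 without Rag2-/- replicate 2, Rag2-/- replicate 3 and WT replicate 2, and that against NSG was 0 without any one of Rag2-/- replicates 1, 2 and 3 and NSG replicates 1, 2 and 4, and 1 without WT replicate 3 or 4.

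Of 9 primary granule genes tested by limma, 0 were called higher and 2 lower in Rag2-/- than in WT cells, with a median difference of -0.15. Against NSG 0 were called, with 5 at an unadjusted p below 0.05 (1888 of all 15026 genes tested) and 1 called by voom. Myeloperoxidase (Mpo), which makes hypochlorous acid, was at 537, 508, 593 and 574 TPM in WT, at 121, 102, 70.1 and 287 TPM in Rag2-/- and at 710, 394, 219 and 444 TPM in NSG replicates 1 to 4. It was lower than in WT by limma (log2 difference -2.13 ± 0.39, adjusted p = 0.019), and Rag2-/- replicate 4, the lowest for the 9 genes, was the highest Rag2-/- library for Mpo. The serine protease gene Prss57 was also lower (-0.65 ± 0.11, adjusted p = 0.015). Neutrophil elastase (Elane), at 9789 ± 915 TPM in Rag2-/- and 10872 ± 583 in WT, and cathepsin G (Ctsg), at 6081 ± 530 and 6009 ± 284, were not called. The 2 calls against WT were lost without Rag2-/- replicate 2 or 3 and became 1 without WT replicate 2 or 3, and without Rag2-/- replicate 4 or NSG replicate 3 the count against NSG was 1.

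**Figure D4:**
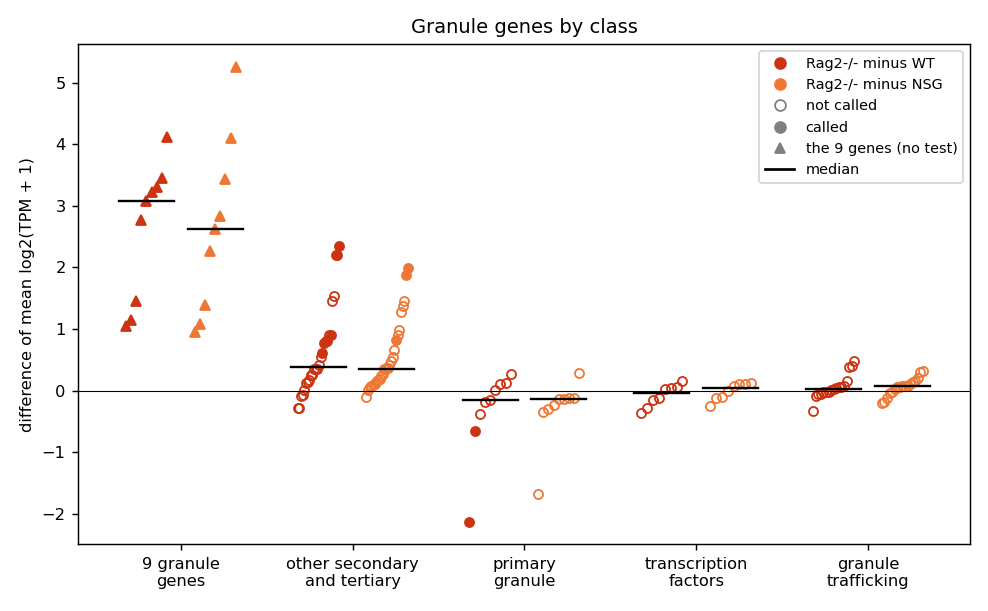
Difference of mean log2(TPM + 1) of Rag2-/- from WT and from NSG cells for the 9 genes and 4 lists of other granule genes that were tested. Filled circles were called by limma, open circles were not, triangles are the 9 genes, which were chosen on these values and are shown without their calls, and black lines are medians, from 3.07 for the 9 genes against WT to -0.15 for primary granule genes.

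Of 8 transcription factors that regulate granule genes, limma called 0 against either host, as did voom. At an unadjusted p below 0.05 there were 3 against WT and 2 against NSG, beside 3146 and 1888 of all 15026 genes tested. Cebpe, the factor of the secondary granule program, was at 220, 139, 170 and 164 TPM in WT, at 161, 148, 119 and 138 TPM in Rag2-/- and at 177, 157, 130 and 219 TPM in NSG replicates 1 to 4. Its libraries overlapped between hosts, and its difference from WT was -0.28 with an adjusted p of 0.36 by limma. Cebpa was at 223 ± 13.1 TPM in Rag2-/- and 287 ± 11.0 in WT, and Spi1, which encodes PU.1, at 623 ± 29.8 and 558 ± 15.9. Of 17 tested genes for granule trafficking and release (Rab27a, Unc13d, Stx11 and others), 0 were called by limma or voom. Their median difference from WT was 0.02, with 4 at an unadjusted p below 0.05 against WT and 4 against NSG. Stx11 had an adjusted p of 0.019 against WT by limma, but its difference of 0.48 was under the limit of 0.5. Without Rag2-/- replicate 1, Rag2-/- replicate 4 or WT replicate 1, 1 of the 17 was called against WT.

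Genes for proteins that bind or inhibit the 9 products were called in 1 of 9 tested in each comparison, in both cases Fpr2, a receptor for the cathelicidin peptide that was also counted above. Voom did not call Fpr2 against NSG. Timp1, an inhibitor of Mmp9, was under the limit, at 0.893 TPM or less in every library. Among 23 relatives of the 9 genes by sequence, 5 were tested and 0 were called by limma or voom, with 2 at an unadjusted p below 0.05 against WT and 0 against NSG. Relatives under the limit included Retnla, which was listed at 0 in all 8 WT and NSG libraries and at 3.35, 3.67, 2.73 and 0.278 TPM in Rag2-/- replicates 1 to 4, and Chil1, at 0.378 TPM or less in WT and NSG and at 3.22, 2.58, 3.35 and 1.10 TPM in Rag2-/- replicates 1 to 4. The 18 nearest genes above the same limit on either side of the 9 genes had 0 calls against WT or NSG by limma or voom. Their median difference from WT was 0.03, with a range from -0.51 to 0.76. At an unadjusted p below 0.05 by limma, 5 of the 18 differed from WT and 4 from NSG. Of all 15026 genes tested, 3146 and 1888 did.

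Of 16 markers of mature neutrophils tested by limma, 3 were called higher than in WT (S100a8, S100a9 and Cxcr2) and 2 higher than in NSG (S100a8 and S100a9). The call of S100a8 against NSG was lost in 11 of 22 fits, and that of S100a9 in 0. The list summed to between 2264 and 2949 TPM in Rag2-/- libraries, against 1797 to 1995 for WT and 1678 to 2003 for NSG. Without S100a8 and S100a9 the other 14 genes summed to 1822 to 2015 TPM in Rag2-/- libraries, 1751 to 1925 for WT and 1608 to 1924 for NSG, which overlapped. Ly6g, the surface antigen used to define mouse neutrophils, was at 4.77 to 5.86 TPM in Rag2-/- replicates 1 to 3, at 1.41 TPM in replicate 4 and at 0.375 to 3.06 TPM in WT and NSG libraries, and Csf3r, the receptor of G-CSF, was at 235 ± 18.7 TPM in Rag2-/- and 242 ± 12.5 in WT cells. Markers of the leukemia were present in every library, with Hoxa9 at 192 to 234 TPM and Meis1 at 54.2 to 63.3 TPM.

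Macrophage markers summed to 106 to 124 TPM in Rag2-/- libraries against 93.9 to 102 for WT, and to 57.5 to 116 for NSG. Of the 12 genes of this list, Marco was at 0 in every library except Rag2-/- replicate 1, where it was at 0.104 TPM. Of 8 tested by limma, C1qc was called higher than in WT and Axl higher than in NSG. These calls were lost in 7 and 16 of 21 fits. Axl, with means of 1.24 TPM in WT, 0.535 in NSG and 3.08 in Rag2-/- cells, passed the limit of 1 TPM through the Rag2-/- libraries. With voom, C1qb, C1qc and Axl were called higher in both comparisons. At an unadjusted p below 0.05 by limma, 5 of the 8 differed from WT and 6 from NSG, beside 3146 and 1888 of all 15026 genes tested. The median differences were 0.68 and 1.06. In 4 and 5 of the 8 all Rag2-/- libraries lay above those of the other host (10.2% and 4.34% of all genes tested). C1qa was at 10.3, 4.53, 7.86 and 4.80 TPM in Rag2-/- replicates 1 to 4 and at 0 to 3.66 TPM in WT and NSG libraries. Rag2-/- replicate 4 was the lowest Rag2-/- library for 1 of the 8, where it was the lowest for all 9 granule genes. The part of macrophages in the level of Chil3 was not tested. Of the eosinophil and basophil markers, Mcpt8 was called higher than in WT (0.58 ± 0.12) among 3 tested, of the monocyte markers Ly6c2 lower (-0.91 ± 0.22) among 8, of the progenitor markers Sox4 lower (-1.01 ± 0.22) among 9, and of the B cell markers Igkc lower (-2.75 ± 0.60) among 4. Igkc was at 0.745 to 18.0 TPM in WT and 0.676 TPM or less in Rag2-/- and NSG libraries, whose hosts lack B cells. It passed the limit of 1 TPM through the WT libraries, with a mean of 9.38 TPM there. The calls of Mcpt8, Ly6c2 and Sox4 were lost in 9, 12 and 9 of 22 fits, and that of Igkc in 10 of 21. T and NK cell markers summed to 9.81 TPM or less, erythroid markers to 11.2 TPM or less, with 1 gene tested in each list and 0 called by limma or voom, or at an unadjusted p below 0.05. The NK cell gene Ncr1, under the limit, was at 0.391, 0.408, 0.531 and 0.108 TPM in Rag2-/- replicates 1 to 4 and at 0 in WT and NSG libraries. Gzma, also under it, was at 0.624 to 2.39 TPM in Rag2-/-, at 0 in WT and at 1.67 TPM in NSG replicate 2 alone. Klrb1c, Prf1, Cd4 and Cd3g, also under the limit, had their highest means in Rag2-/- cells, with libraries that overlapped those of the other hosts. The Klrb1c mean was 0.927 TPM there, against 0.410 for WT and 0.272 for NSG hosts. Nkg7, which was the gene tested, Cd3d and Cd8a had lower means in Rag2-/- cells than in WT and NSG cells. Cd3d and Cd8a were under the limit, with means of 0.369 TPM or less for every host. Cd3e and Trac were at 0 in every library.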

How the data were processed

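The RNA-seq comprised 4 libraries of GFP+ MLL-AF9 cells for each of 3 hosts. Per the methods, the authors aligned reads to mm10 with HISAT2 on Galaxy, counted reads per gene and calculated TPM, which is the deposited unit. The counting tool, annotation and gene lengths are not given in the sources used here. Each library sums to 1000000 TPM, a share of the total, so a rise in some genes lowers the others. Of 55401 gene IDs, 55141 were paired with a symbol, and 0 value columns were left unused. Coordinates and exon lengths are from GENCODE M21 (GRCm38).

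A linear model of log2(TPM + 1) on host was fitted over the 12 libraries (limma 3.58.1, R 4.3.3, eBayes with a trend), and adjusted by the Benjamini-Hochberg method over the 15026 genes that averaged 1 TPM or more. Genes were called at an adjusted p below 0.05 and a log2 difference beyond 0.5, as in the methods. Errors of differences are SE from this fit. Reads were estimated as TPM multiplied by exon length over the value of 1 read, and 99.0% to 99.3% of genes with up to 20 reads came out within 0.1 of a whole number. Alternatives tried were 0.1 as the pseudocount, genes reaching 1 TPM in every library, all genes above 0, quantile normalization, scaling by the median ratio, no trend, a fit of only the 8 libraries compared, a block for the replicate number, each library left out, and voom on estimated reads, which was chosen after seeing the data. The scripts were tested on simulated data. Python 3.11.15, numpy 2.4.6, pandas 2.3.3 and matplotlib 3.10.9 were used besides.

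The 9 genes, the gene lists and the sequence patterns were chosen with earlier results of these data known. Named were the 9 genes, the called and defining genes of each list, the 10 genes most like the 9 by each measure and the nearest genes above 1 TPM. Genes of lists that were not called are named as examples, chosen after their values were seen. The labels call the libraries biological replicates without tying them to mice, so p-values measure the spread between these libraries.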

Additional observations from a re-analysis of the deposited data

Results flagged for a closer look

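Of 27 groups examined (9 genes in 3 hosts), 2 held a library far from the other 3 by Dixon's test at 95%, where 1.35 would be flagged by chance. The test was run on log2(TPM + 1). Mmp8 in Rag2-/- replicate 4, at 7.51 TPM beside 30.0 to 35.5 TPM, lay at a gap of 0.888 of the range of the host on that scale, past the critical value for 4 libraries, but at 0.804 of the range in TPM, which is not past it. Retnlg in Rag2-/- replicate 4, at 18.2 TPM beside 90.0 to 102 TPM, lay at a gap of 0.928 of the range on that scale and of 0.861 in TPM, both past it. The comparison in TPM was added after seeing the data.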

How the results depend on the processing

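The median difference of the 9 genes kept its direction from WT and from NSG under every alternative. It was 2.11 and 2.01 with genes at 1 TPM in every library, which keeps 6 of the 9, and ran from 2.84 to 3.43 and from 2.38 to 2.98 with 1 library left out. From NSG, the number of the 9 called ranged from 3 to 9. Over all genes, calls against WT (221) were 355 in the 8 libraries of the comparison alone, 114 with all genes above 0 and 47 to 326 with 1 library left out. Calls against NSG (32) were 6 in the 8 libraries alone, 7 with all genes above 0, 11 with median-ratio scaling, 18 without a trend, 14 with a pseudocount of 0.1, 19 with quantile normalization, 59 with voom and 4 to 90 with 1 library left out. Calls between NSG and WT (0) were 2 with all genes above 0, 1 with voom and 0 to 2 with 1 library left out. Of the other secondary and tertiary granule genes, 3 were called against NSG, and 0 in the 8 libraries alone or with all genes above 0, 1 with median-ratio scaling, no trend, a pseudocount of 0.1 or quantile normalization, and 0 to 8 with 1 library left out, and against WT 2 to 11. Primary granule genes gave 1 call against NSG with voom, 0 to 2 against WT and 0 to 1 against NSG with 1 library left out, and trafficking genes 0 to 1 against WT. The median correlation within hosts ran from 0.149 to 0.757. Single named genes that are not among the 9 fell below the threshold in 153 results, while S100a9 in both comparisons and S100a8, Fpr1 and Anxa1 against WT kept their call under every alternative that fitted them, which for Fpr1 leaves out the limit of 1 TPM in every library. The cause of these changes was not tested. The replicate numbers did not pair the libraries (correlation of same-numbered libraries from -0.091 to 0.032, 0 of 12 libraries closest to their own number). With the number as a block, 5 genes and 0 of the other granule genes were called against NSG. At this depth, 3 reads on Retnlg amount to 0.521 to 0.910 TPM in NSG libraries, which limits its level there.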
